A study of Mus musculus with 5 samples.

Results

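The Hox genes encode homeodomain transcription factors that lie in 4 chromosomal clusters in the mouse. All 39 were taken as members, that is, every gene whose symbol is Hoxa, Hoxb, Hoxc or Hoxd followed by a number. Both deposited region tables were searched for them in the list of genes that each region carries. For H2A.Z, 28 of 31098 regions listed at least 1 Hox gene, and together they listed 32 of the 39. For ANP32E, 0 of 8444 regions listed one.

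The groups were whole hearts of male C57BL/6 mice aged 12 weeks, taken after transaortic coarctation (TAC, a surgical constriction of the aorta that imposes pressure overload) for 4 days or after a sham operation. Each antibody, against the histone variant H2A.Z or against its chaperone ANP32E, gave 1 library per operation, and the input library, labelled as pooled heart, was not analysed here. How many hearts went into each library was not given in the labels. With 1 library per group there was no test across animals, so each difference describes these libraries only.

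Hox genes pattern the body axis: within a cluster they are ordered along the chromosome as their expression domains are ordered from head to tail, and genes with the same number in different clusters are paralogs. Low-numbered members act in the hindbrain, pharyngeal arches and the progenitors of the cardiac outflow tract, and high-numbered members in the limbs, gut end and genital tract. Outside their domains the clusters are held by Polycomb proteins, and their CpG islands are a textbook case of promoters poised rather than active. H2A.Z occupies nucleosomes at CpG-island promoters of both active and poised genes, and ANP32E removes it from chromatin.

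Region values are the authors' average signal over a merged region, in deposited units whose scaling was not stated, and the depth behind them is unknown. TAC was set against sham as log2((TAC + 1)/(sham + 1)), which understates the difference of weak regions, and a region counted as higher or lower from 1.5-fold. Whole heart mixes cell types, so a smaller share of cells carrying H2A.Z and less H2A.Z per cell cannot be told apart. Of the fixed marker genes, 6 of 10 for heart muscle, 5 of 5 for endothelium, 3 of 5 for fibroblasts and epicardium and 1 of 5 for leukocytes had an H2A.Z region at the start. The heart-muscle genes Mef2c, Myh6, Actc1 and Ryr2 had none. The median log2 ratio at the marked starts was -0.22 for heart muscle, 0.062 for endothelium and 0.073 for fibroblasts and epicardium, and the leukocyte gene Cd68 stood at -0.19. The part of cell composition in the Hox values below was not tested.

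The clusters differed in how much of them H2A.Z covered. HoxA, on chromosome 6, had 13 regions, 1 of them just beyond Hoxa13, and they covered 50.9% of the 105.5 kb between the outer ends of its genes. HoxB, on chromosome 11, held 8 regions over 16.5% of 173.9 kb, with none in the long stretch between Hoxb13 and Hoxb9. HoxD, on chromosome 2, held 5 regions over 12.7% of 96.9 kb. HoxC, on chromosome 15, held 2 regions over 6.20% of 115.7 kb. No region inside the 4 spans listed only other genes.

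**Figure D1:**
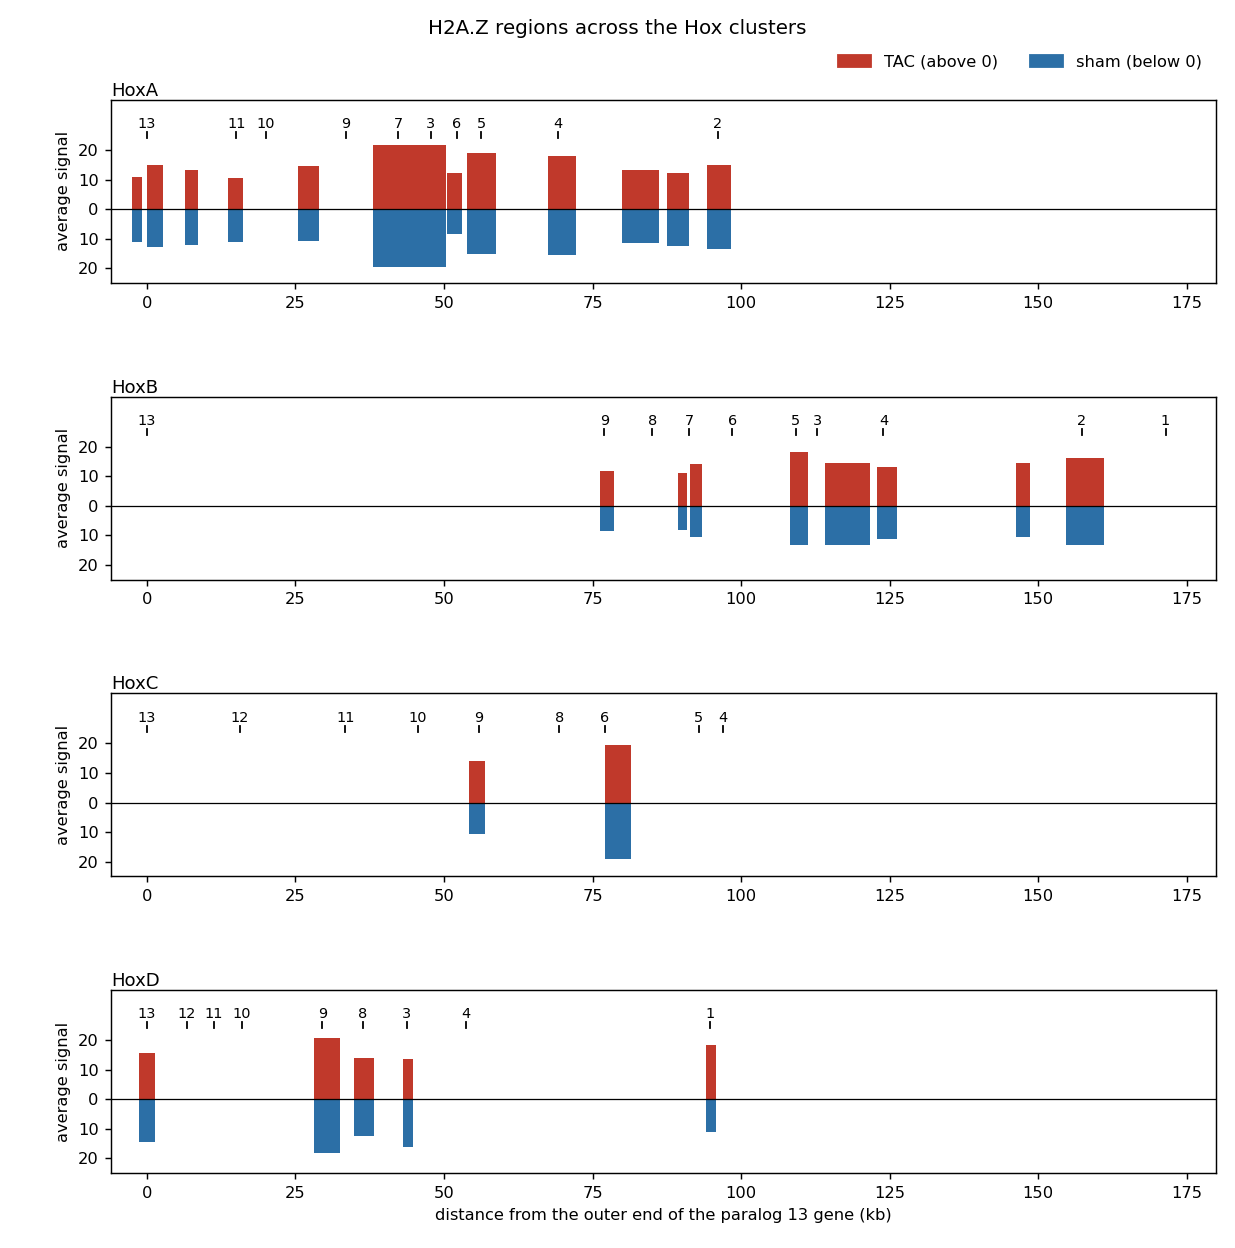
H2A.Z regions along each Hox cluster, with the average signal of the TAC library drawn upward and that of the sham library drawn downward, against distance from the outer end of the paralog 13 gene in kb. Ticks mark the gene start with its paralog number. HoxA regions lie along the cluster, whereas HoxC holds 2.

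A region was called the promoter region of a gene when its midpoint lay within 1000 bp of the listed start or when it covered that start. By this rule 19 of the 39 Hox genes had an H2A.Z promoter region, in 18 regions, since Hoxa3 and Hoxa7 shared one. The share of all genes marked by this rule was not counted, so 19 of 39 is not read as low or high. HoxA had 8 of 11 genes so marked, HoxB 5 of 10, HoxD 5 of 9 and HoxC 1 of 9. The low-numbered genes, paralogs 1 to 4, were marked in 8 of 12 cases, paralogs 5 to 8 in 6 of 11, and paralogs 9 to 13 in 5 of 16. No gene of paralog groups 10 and 12 had a promoter region.

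Another 13 Hox genes were listed by a region without being marked at the start. The region nearest the start of Hoxa13, a digit and genital tract gene, ended 37 bp short of it. For Hoxa10, a gene of the uterus, the RefSeq start furthest upstream was bare, but the 300-base window at a downstream start lay wholly inside a region. The region nearest Hoxc6 began 19 bp inside the RefSeq gene, although the table lists it 9094 bp upstream of another start. The 7 genes that no region listed were Hoxb1, Hoxb13, Hoxc4, Hoxc5, Hoxc11, Hoxc12 and Hoxc13. Of the 19 starts in the table, 16 lay within 100 bp of the RefSeq gene start. Hoxb7 and Hoxd8 were among the exceptions.

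RefSeq promoter windows (build GRCm38.p6, from 250 bases before to 50 bases after a start) were given for 22 Hox genes in 24 windows. Windows wholly inside an H2A.Z region held a median of 20 CpG dinucleotides (13 windows), those outside held 11 (10 windows), and all 32851 RefSeq windows held 7. The ranges overlapped, with 6 to 37 inside and 4 to 25 outside. The remaining window, of Hoxa13, touched a region only at its edge and held 45. The 5 windows below were chosen for their H2A.Z state: Hoxd1 had the highest TAC ratio, Hoxb4 stands for HoxB, and Hoxa7 lies in the longest and strongest region, while Hoxd4 and Hoxb1 have no region at the start. Capitals mark CpG dinucleotides, of which Hoxd1 has 29, Hoxb4 14, Hoxa7 9, Hoxd4 4 and Hoxb1 10.
Hoxd1, chr2:74762730-74763029, plus strand: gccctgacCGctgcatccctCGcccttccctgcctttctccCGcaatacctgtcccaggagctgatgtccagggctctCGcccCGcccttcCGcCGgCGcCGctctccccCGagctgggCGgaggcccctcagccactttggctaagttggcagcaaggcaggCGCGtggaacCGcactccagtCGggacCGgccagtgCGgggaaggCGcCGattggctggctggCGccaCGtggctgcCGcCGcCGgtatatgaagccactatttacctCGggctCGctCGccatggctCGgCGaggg
Hoxb4, chr11:96318017-96318316, plus strand: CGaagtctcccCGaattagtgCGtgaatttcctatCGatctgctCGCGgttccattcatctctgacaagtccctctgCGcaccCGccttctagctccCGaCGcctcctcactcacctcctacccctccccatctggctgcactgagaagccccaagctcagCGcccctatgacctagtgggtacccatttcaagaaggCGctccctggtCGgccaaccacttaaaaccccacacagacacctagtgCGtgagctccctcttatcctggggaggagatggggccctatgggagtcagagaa
Hoxa7, chr6:52218524-52218823, minus strand: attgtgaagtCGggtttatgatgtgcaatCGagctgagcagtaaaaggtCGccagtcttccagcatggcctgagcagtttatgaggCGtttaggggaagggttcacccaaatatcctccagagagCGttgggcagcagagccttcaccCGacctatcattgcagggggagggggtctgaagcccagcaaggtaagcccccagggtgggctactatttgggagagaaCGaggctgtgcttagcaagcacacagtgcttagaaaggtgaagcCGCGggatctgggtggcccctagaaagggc
Hoxd4, chr2:74721728-74722027, plus strand: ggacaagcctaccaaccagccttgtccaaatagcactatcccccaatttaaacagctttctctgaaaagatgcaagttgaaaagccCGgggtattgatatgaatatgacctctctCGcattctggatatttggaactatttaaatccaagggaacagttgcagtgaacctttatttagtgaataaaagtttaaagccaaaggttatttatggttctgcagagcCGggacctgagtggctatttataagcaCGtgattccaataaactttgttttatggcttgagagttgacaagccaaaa
Hoxb1, chr11:96365508-96365807, plus strand: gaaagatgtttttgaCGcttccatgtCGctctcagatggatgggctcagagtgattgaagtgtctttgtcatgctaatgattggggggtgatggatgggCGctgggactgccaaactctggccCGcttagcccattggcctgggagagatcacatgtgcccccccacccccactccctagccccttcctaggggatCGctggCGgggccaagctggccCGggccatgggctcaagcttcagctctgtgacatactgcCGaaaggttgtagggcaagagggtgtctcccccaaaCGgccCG

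Motifs were searched on both strands of these windows as plain letters, and a match is a description only. The Hox-Pbx form TGATNNAT was found in 4 of 24 Hox windows (16.7%) and in 8.85% of all windows. The 4 belong to Hoxa2, Hoxb1, Hoxb8 and Hoxd11, and only the Hoxa2 window lies in an H2A.Z region. The homeodomain core TAATTA, which is its own reverse complement, was found in 2 windows, both of Hoxd11 (8.33%, against 5.29% of all). The retinoic acid receptor core site AGGTCA was found in 7 windows (29.2%, against 16.3% of all), namely those of Hoxa5, Hoxb4, Hoxc4, Hoxd3, Hoxd4, Hoxd8 and Hoxd10. The retinoic acid direct repeat, which contains the core site, was in 0 of 24 Hox windows and in 3 of all windows. CCAAT was in 62.5% of Hox windows and 37.4% of all, GGGCGG in 41.7% and 35.7%, and TATAAA in 16.7% and 13.6%.

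The clusters also carry microRNA genes of the miR-10 and miR-196 families, which are known to repress Hox messages. Their mature 5p sequences are shown because the families share a seed (bases 2 to 8, in capitals) across clusters.
mmu-miR-10a-5p, HoxB: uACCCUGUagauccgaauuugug
mmu-miR-10b-5p, HoxD: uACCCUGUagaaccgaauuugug
mmu-miR-196a-5p, HoxB and HoxC: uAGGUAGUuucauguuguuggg
mmu-miR-196b-5p, HoxA: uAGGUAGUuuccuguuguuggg
None of the 6 microRNA genes looked up in the clusters, the sixth being Mir615 in HoxC, lay in an H2A.Z region, and 4 were listed by one. Mir10a ended where the region at Hoxb4 begins, Mir196b lay 1821 bp and Mir196a-2 1849 bp from the nearest region, and Mir196a-1 lay 5247 bp away.

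H2A.Z over the Hox clusters was weak, and most regions had slightly more signal in TAC than in sham hearts. The median average signal of the 28 regions was 14.4 in TAC and 12.6 in sham hearts. Over all regions it was 15.7 in each library, and over the 10879 CpG-island regions that list no Hox gene it was 28.4 in TAC and 27.6 in sham hearts. Of the 28 Hox regions, 23 held at least 1 CpG island, and the strongest reached 21.9 in TAC and 19.6 in sham hearts.

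The log2 ratio was above 0 in 24 of 28 Hox regions (85.7%), against 52.6% of all regions. The median ratio was 0.20 for the Hox regions (SD across regions 0.20, range -0.22 to 0.70) and 0.014 for all regions. At 1.5-fold, 1 Hox region was higher (3.57%) and 0 were lower, against backgrounds of 1.74% higher and 3.92% lower.

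Other weak CpG-island regions also lay mostly above 0. The 2167 other CpG-island regions within the signal range of the Hox regions had a median ratio of 0.14, with 72.1% above 0 and 2.17% past 1.5-fold higher. Their median signal was 17.4 in TAC and 15.8 in sham hearts, above that of the Hox regions. Across the CpG-island regions that list no Hox gene the median ratio was smaller the stronger the signal, with 0.41 at a mean signal of 8 to 10, 0.24 at 10 to 12, 0.21 at 12 to 14, 0.16 at 14 to 16, 0.13 at 16 to 18 and 0.077 at 18 to 22. The share called in TAC only fell along these bins too. It was 92.3% at 8 to 10, 48.7% at 10 to 12 and 1.12% at 18 to 22, and the part of calling in the trend was not tested. Set against the median of its own signal bin, 16 of 28 Hox regions were above it, and the median difference was 0.038, with single regions between -0.38 and 0.53. The bins hold CpG-island regions only, whereas 5 of the 28 Hox regions have no CpG island. Regions with neither a CpG island nor a Hox gene had a median ratio of -0.022.

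**Figure D2:**
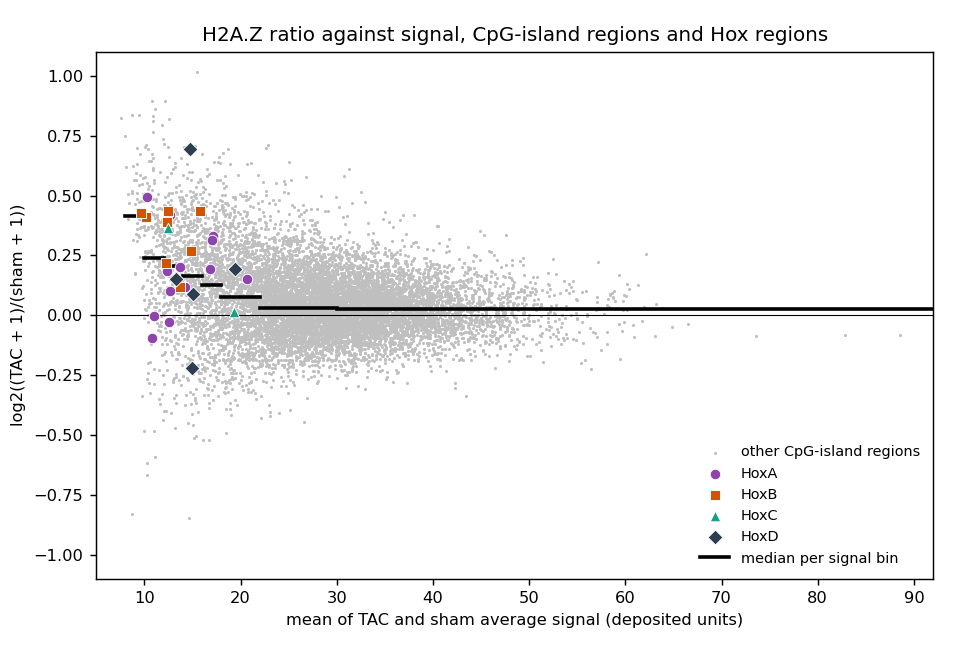
Log2 ratio of TAC over sham against the mean of both average signals, for the 28 Hox regions by cluster and for the other CpG-island regions (grey), with black bars at the median of each signal bin. The Hox regions lie at the weak end, where the grey median is above 0, and the HoxB squares lie mostly above the bars.

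Interval calling also entered these values. Of the 28 regions, 20 were called in both libraries (71.4%, against 76.9% of all regions), 7 in TAC only (25%, against 11% of all regions) and 1 in sham only (3.57%, against 12.1% of all regions). A region called in TAC only was admitted to the table through the TAC library, which favours a ratio above 0, and 6 of the 7 were above 0. In other CpG-island regions of the same signal range 12.4% were called in TAC only, and their median ratio was 0.36, against 0.42 for the 7 Hox regions. Among regions called in both libraries, 18 of 20 Hox regions had a ratio above 0 with a median of 0.19. The 1841 other CpG-island regions in the Hox signal range called in both had 69.5% above 0 and a median of 0.11. Their signal was stronger, with medians of 17.9 in TAC and 16.5 in sham hearts. The 20 Hox regions had 14.8 in TAC and 13.3 in sham hearts. Across these 20 the ratio and the mean signal had a Spearman coefficient of 0.023. The trend over signal bins was not computed for regions called in both, so the part of signal in this difference was not tested.

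HoxB had the highest median ratio of the 4 clusters. All 8 of its regions had more signal in TAC, with a median ratio of 0.40 (range 0.12 to 0.44), and 7 of 8 lay above the median of their signal bin, by a median of 0.14. Without the 3 HoxB regions called in TAC only the median was 0.27. HoxA had a median of 0.19, with 10 of 13 regions above 0 and 6 of 13 above their bin. HoxD had 0.15, with 4 of 5 above 0, and the HoxC regions were at 0.014 and 0.37. Regions within a cluster are neighbours in 1 library and are not replicates, so the clusters were not tested against each other.

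**Figure D3:**
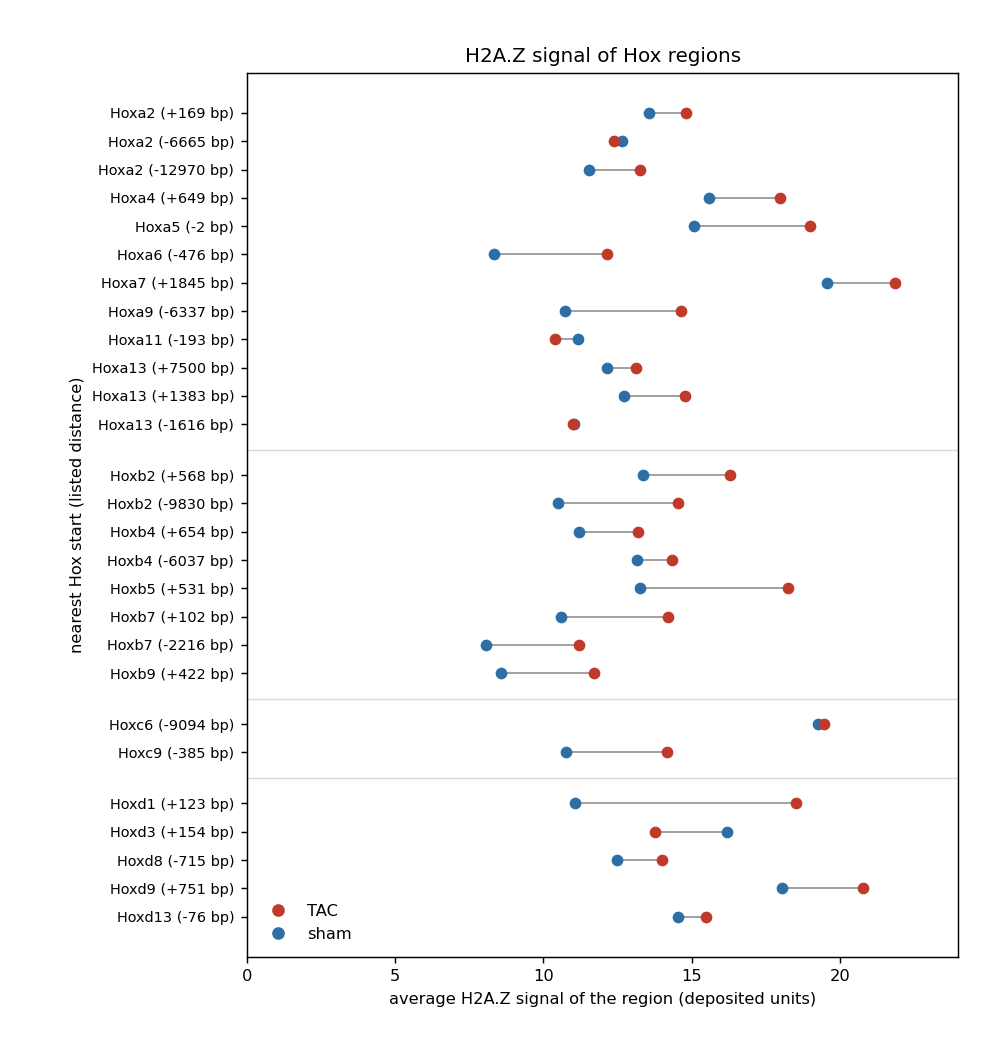
Average H2A.Z signal of Hox regions in the TAC library (red) and the sham library (blue), named by the nearest Hox start and the listed distance from it in bp. In HoxB each red point is to the right of its blue point, and Hoxd1 has the widest gap.

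At the anterior end of HoxA the marked starts of Hoxa2 and Hoxa4 had ratios above 0. Hoxa2, the selector gene of the second pharyngeal arch, had 14.8 in TAC and 13.6 in sham hearts (0.12), in a region without a CpG island. Hoxa4 had 17.97 in TAC and 15.6 in sham hearts (0.19), with equal peaks of 47 in both. A region 6665 bp upstream of Hoxa2, inside the long Hoxa3 transcript, was the only one called in sham alone. Its averages were 12.4 in TAC and 12.6 in sham hearts, but its peak was 45 in TAC and 31 in sham hearts.

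The middle of HoxA held the strongest H2A.Z of all 4 clusters. Hoxa5, which patterns the lung and the cervical to thoracic skeleton, had 19.0 in TAC and 15.1 in sham hearts (0.31). Hoxa6 had 12.1 in TAC and 8.33 in sham hearts (0.49), and its peak of 31 in TAC against 15 in sham hearts gave the largest peak ratio, a log2 value of 1. That region has no CpG island and was called in TAC only. Just upstream in transcription lay the longest Hox region, 12339 bp over the starts of Hoxa7 and the long Hoxa3 transcript (chr6:52210559-52222898), longer than 98.1% of all regions and with 3 CpG islands. It had 21.9 in TAC and 19.6 in sham hearts (0.15), and its peak, the highest of all Hox regions, was 103 in both.

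Posterior HoxA was weaker, and its ratios lay on both sides of 0. Hoxa9, a regulator of blood stem cells, had no region at its start, and a region 6337 bp upstream of it, over a start of Hoxa10, had 14.7 in TAC and 10.7 in sham hearts (0.42). That upstream region was called in TAC only. Hoxa11, a gene of the forearm, kidney and uterus, had 10.4 in TAC and 11.2 in sham hearts (-0.094), with a peak of 22 in both. The regions around Hoxa13 had ratios of 0.10, 0.20 and -0.0046, and the last of them was called in TAC only although its averages were 11 in TAC and 11.04 in sham hearts.

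In HoxB the gap between the libraries was widest at Hoxb5. Hoxb5, a gene of the enteric neural crest and of long-term blood stem cells, had 18.3 in TAC and 13.3 in sham hearts (chr11:96302506-96305580, 0.43), with peaks of 60 in TAC and 36 in sham hearts. Hoxb9, a gene of the thoracic skeleton, had 11.7 in TAC and 8.56 in sham hearts (0.41). The Hoxb7 promoter had 14.2 in TAC and 10.6 in sham hearts (0.39), and a region 2216 bp upstream of its start, inside Hoxb8, had 11.2 in TAC and 8.07 in sham hearts (0.43). These last 3 regions were called in TAC only.

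In anterior HoxB the marked starts of Hoxb2 and Hoxb4 had smaller ratios than those of Hoxb5, Hoxb7 and Hoxb9, but the regions between genes went both ways. Hoxb2, which acts in facial motor neurons, had 16.3 in TAC and 13.4 in sham hearts (0.27). Hoxb4, known for expanding blood stem cells, had 13.2 in TAC and 11.2 in sham hearts (0.22). A region of 2 CpG islands inside Hoxb3, 9830 bp upstream of Hoxb2, had 14.5 in TAC and 10.5 in sham hearts (0.44), the highest average ratio in HoxB. The broad region of 7539 bp between Hoxb5 and Hoxb4 had 14.3 in TAC and 13.2 in sham hearts (0.12), the lowest in HoxB.

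HoxC was marked at a single start. Hoxc9, which sets thoracic motor neuron identity, had 14.2 in TAC and 10.8 in sham hearts (chr15:102975283-102978012, 0.37). The region at the 5′ end of Hoxc6 had 19.5 in TAC and 19.3 in sham hearts (0.014). Neither HoxC region held a CpG island.

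HoxD held both the highest and the lowest average ratio. Hoxd1, which acts in pain-sensing neurons of the mouse, had 18.5 in TAC and 11.1 in sham hearts (chr2:74762248-74763958, ratio 0.70, 1.62-fold), was called in TAC only, and was the only Hox region past 1.5-fold. Its peaks were 44 in TAC and 31 in sham hearts, a peak ratio of 0.49 that is under 1.5-fold. Hoxd3 had 13.8 in TAC and 16.2 in sham hearts (-0.22), although its peaks, 34 in TAC and 32 in sham hearts, went the other way (0.08). Hoxd9 had 20.8 in TAC and 18.1 in sham hearts (0.19), and Hoxd8 had 14 in TAC and 12.5 in sham hearts (0.15). Hoxd13, the digit gene mutated in synpolydactyly, had 15.5 in TAC and 14.5 in sham hearts (0.088), but its peaks of 52 in TAC and 30 in sham hearts gave 0.77.

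**Figure D4:**
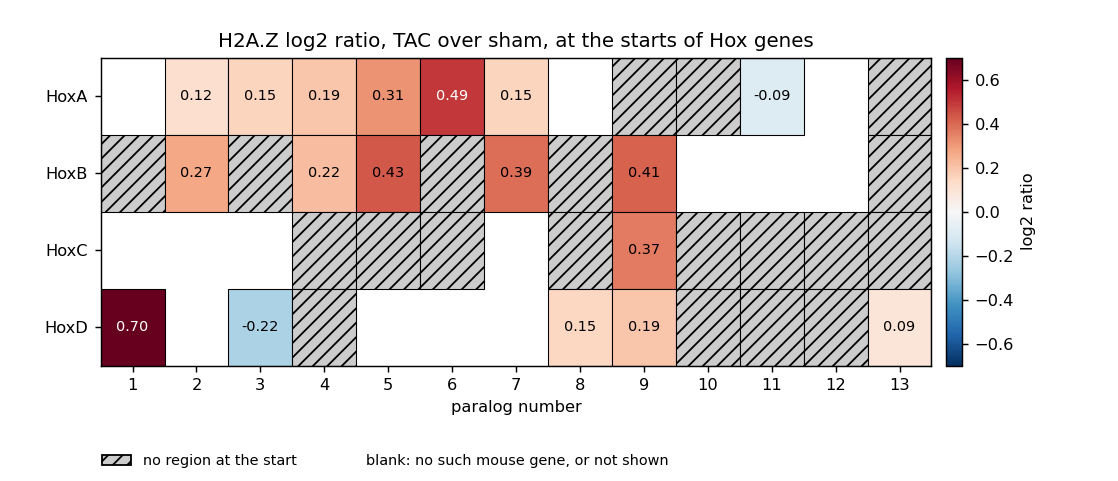
Log2 ratio of the average H2A.Z signal, TAC over sham, at the promoter regions of Hox genes, by cluster and paralog number. The ratio is above 0 at each marked start drawn except Hoxa11 and Hoxd3.

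By paralog number the marked starts showed no order. The median ratio over genes was 0.20 for paralogs 1 to 4 (8 genes), 0.35 for paralogs 5 to 8 (6 genes) and 0.19 for paralogs 9 to 13 (5 genes), and the ranges overlapped. The gene values went apart within a group: in paralog group 3 Hoxd3 had -0.22 and Hoxa3 0.15. In group 9 Hoxb9 had 0.41, Hoxc9 0.37 and Hoxd9 0.19. Over all 19 marked genes the median was 0.22, with 17 above 0 (60.1% of 13763 promoters were), and over all promoters it was 0.035.

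Peak signal gave a like balance. The peak ratio was above 0 in 24 Hox regions, 0 in 3 and below 0 in 1, against 60.5% above 0 over all regions, and its median was 0.30, against 0.093 over all. Other CpG-island regions in the Hox signal range had a median peak ratio of 0.22, with 74.7% above 0. By peaks 4 Hox regions were past 1.5-fold higher (14.3%) and 0 lower, against 5.81% higher and 4.45% lower over all regions. In the CpG-island regions of the Hox signal range 11.1% were higher. The 4 were at Hoxa6, upstream of Hoxb7, at Hoxb5 and at Hoxd13, and Hoxd1 was not among them. Across the 28 regions the average and peak ratios had a Spearman coefficient of 0.57, as a description of regions that share libraries.

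ANP32E was not called anywhere in the Hox clusters. None of the 28 H2A.Z Hox regions was overlapped by an ANP32E region, which allows a share of up to 10.7% (3 of 28, counting error only). Over all H2A.Z regions 23.1% were overlapped, and over other CpG-island regions 42.8%. The share followed H2A.Z signal: it was 0 of 52 regions at a mean signal of 8 to 10, 2 of 199 at 10 to 12, 1 of 285 at 12 to 14, 18 of 429 at 14 to 16 and 2750 of 4424 from 30 up. CpG-island regions within the Hox signal range were overlapped in 7.52% of cases, so a lower share at Hox regions was not detectable with 28 regions.

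**Figure D5:**
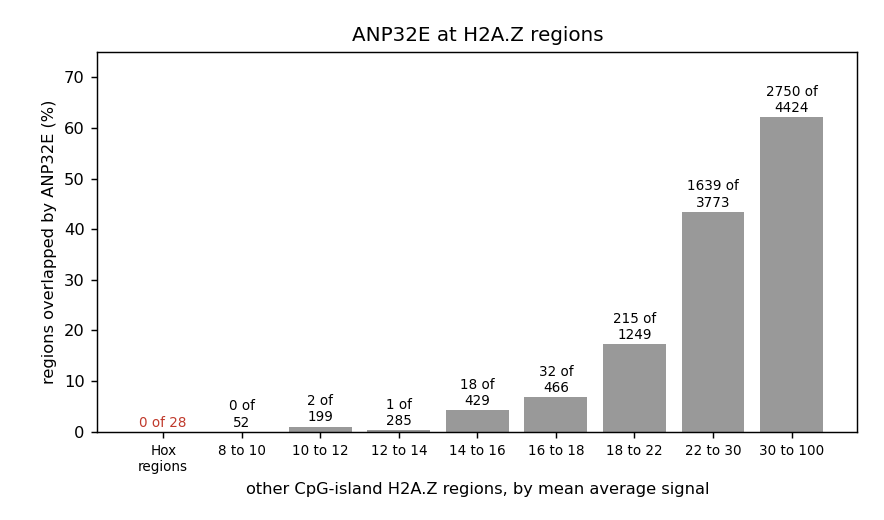
Percentage of H2A.Z regions overlapped by at least 1 bp of an ANP32E region, for the 28 Hox regions and for other CpG-island regions by mean average H2A.Z signal, with the counts above the bars. The share is 0 of 28 for Hox regions and rises with signal to 62.2% in the other regions.

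The nearest ANP32E regions lay well outside each cluster. HoxD had the closest, 59.9 kb away at Mtx2, a mitochondrial import protein, with 6.59 in TAC and 8.03 in sham hearts. HoxB was 117.5 kb from one listed for Ube2z and Atp5g1, with 8.76 in TAC and 10.6 in sham hearts. HoxC was 125.8 kb from one at Smug1, a DNA repair glycosylase, with 4.05 in TAC and 9 in sham hearts (log2 ratio -0.99). HoxA was 451.9 kb from one at Tax1bp1, with 6.62 in TAC and 10.8 in sham hearts. ANP32E had a median ratio of -0.26 over all its regions, and on a scale centred on that shift Smug1 stood at -0.72 and Mtx2 at 0.013. The regions at Mtx2, Smug1 and Tax1bp1 were called in sham only.

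The genes that flank the clusters also had H2A.Z at about the level of all promoters. Of 29 names listed in or beside the clusters, antisense RNAs and microRNAs included, 8 had an H2A.Z promoter region, with a median signal of 28.0 in TAC and 27.8 in sham hearts and a median ratio of 0.06, 6 of them above 0 and 0 past 1.5-fold. The highest were Lnp (0.15), which shares limb enhancers with HoxD, and Mtx2 (0.11), and the lowest were Calcoco1 (-0.22) and Snx10 (-0.05). ANP32E was at 3 of the neighbours, called in sham only in each case: Calcoco1 had 4.19 in TAC and 9.15 in sham hearts, beside Smug1 and Mtx2. Calcoco1 and Smug1 were past 1.5-fold lower, also after centring, against 9.24% of ANP32E promoters, or 2.29% after centring. All 3 neighbours were admitted to the table through the sham library, which favours a ratio below 0. They were not compared with promoters called alike.

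Genes that act with Hox proteins or on Hox clusters had H2A.Z at about the level of other promoters. Of 56 such genes 45 had an H2A.Z promoter region, in 44 regions, with a median signal of 30.4 in TAC and 30.4 in sham hearts, against 28.3 in TAC and 27.6 in sham hearts for all 13763 promoters. Their median ratio was 0.04, with 27 above 0 (60.1% of all promoters were) and 0 past 1.5-fold (0.436% of promoters were higher and 0.145% lower). Polycomb genes were marked in 21 of 22 cases (median 0.022), the TALE cofactors of Hox proteins in 9 of 9 (0.12), retinoic acid genes in 8 of 12 (0.11), and Trithorax and related genes in 6 of 9 (0.03). The Cdx genes, which activate Hox clusters in the embryo, were marked in 0 of 3, and Ctcf, the boundary factor, stood at -0.04. As the share of all genes so marked was not counted, these counts are not read as low or high. The highest ratios were at Aldh1a3, a retinoic acid synthesis enzyme, with 21.4 in TAC and 14.8 in sham hearts (0.50), and at Pbx4 (0.43). The Aldh1a3 region was called in TAC only, and so was admitted to the table through the library where it was higher. The lowest were at Eed, a Polycomb subunit, with 47.1 in TAC and 53.1 in sham hearts (-0.17), and at the retinoic acid receptor gene Rara (-0.12).

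ANP32E lay at 21 of these 56 genes and at none of the Hox genes, whose H2A.Z regions were weaker (median 14.4 in TAC, against 30.4). Over all genes, 5496 had an ANP32E promoter region and 13763 an H2A.Z one, against 21 and 45 of the 56. The median ratio of the 21 was 0.19, against -0.14 for all 5496 ANP32E promoters. Centring on the median of all ANP32E regions raises both alike, and took the first to 0.46. At 1.5-fold 4 were higher and 1 lower, and after centring 9 were higher and 0 lower, against backgrounds of 4.31% higher and 9.24% lower, or 12.6% and 2.29% after centring. The highest ratios were at 2 of the TALE cofactors: Meis3 had 7.75 in TAC and 3.18 in sham hearts (1.07, or 1.33 centred), and Pbx2 had 8.92 in TAC and 4.28 in sham hearts (0.91, or 1.17 centred). The list went both ways: of 5 TALE cofactors with ANP32E, 2 were past 1.5-fold higher and 1 lower, with a median ratio of 0.11. Dot1l, a histone methyltransferase, stood near the low end with 6.71 in TAC and 9.40 in sham hearts (-0.43, or -0.17 centred). Meis3 and Pbx2 were called in TAC only, and Dot1l in sham only. Each region past 1.5-fold before centring was called only in the library where it was higher, and was admitted to the table through it. Most of the 9 that were higher after centring were also called in TAC only. The counts were not compared with those of promoters called alike.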

How the data were processed

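ChIP-seq of H2A.Z and ANP32E in TAC and sham hearts was read from 2 deposited tables of merged regions. Per the submitters' processing notes, the tools were BWA and SICER and the build was mm10; no versions are named. The average and peak signal per region, the call in each library and the CpG-island count were used as deposited by the authors, who do not state its scaling in the labels. Each antibody has 1 library per operation, so nothing was tested across animals and no p-value was computed. The pseudocount was 1. Members, lists and comparisons were chosen with earlier results of these data known. Hox genes could be named, and of the other lists the 2 highest and 2 lowest promoter ratios per antibody. Some named items are not reported here, in text or plots, but stay in the counts and medians. Overlap was counted from 1 bp. CpG-island regions were binned by mean signal at 8, 10, 12, 14, 16, 18, 22, 30 and 100. Sequences and gene positions are RefSeq's, GRCm38.p6, the assembly behind mm10, and all 39 symbols matched there. Region coordinates are the deposited ones. Ratio, promoter and overlap steps were tested on simulated data. Alternatives covered peak signal, other pseudocounts, centring, subsets, promoter distance and overlap. Python 3.11.15, numpy 2.4.6, pandas 2.3.3 and matplotlib 3.10.9 were used.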

Additional observations from a re-analysis of the deposited data

How the results depend on the processing

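The median H2A.Z log2 ratio of the Hox regions, 0.20, stayed above 0 under each alternative tried. It was 0.30 with peak signal, 0.21 and 0.16 with pseudocounts of 0.1 and 5, 0.18 when centred on all regions, 0.22 with each gene counted once, 0.19 among regions called in both libraries, and 0.19 among the 7 Hox regions in the stronger 50% of the table. Requiring a CpG island, or taking every region between the outermost ones, left it at 0.20. Alternatives added after the data were seen gave 0.27 without HoxA, 0.17 without HoxB, 0.22 without HoxD, 0.20 without HoxC, and 0.038 after subtracting the median of CpG-island regions of like signal. The sign of single regions differed from the average ratio in 5 of 28 cases with peak signal, ties included, and in 0 with other pseudocounts or centring. The number past 1.5-fold, 1, was 4 with peak signal (14.3%, against 5.81% of all regions higher and 4.45% lower), 0 at 2-fold, 0 with a pseudocount of 5, and 1 otherwise. Hox genes with an H2A.Z promoter region numbered 19, 23 within 5000 bp and 32 at any listed distance; for ANP32E the number was 0 under each, as was the overlap of both proteins with 50% of the ANP32E region required or with ANP32E regions called in both libraries. The median sham signal, 12.6, was 28.5 as peak signal, 14.4 in the TAC library, and 12.6 in regions with a CpG island. The ANP32E ratios and levels planned for Hox regions could give no value, since that table lists no Hox gene. No replicate could be left out. No paired analysis was possible because each group has 1 library. Depth is unknown, so weak regions missed by the caller cannot be told from regions without the protein.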

Other observations

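H2A.Z regions with no listed gene also lay beyond the anterior ends of HoxA and HoxB. Within 100 kb of HoxA lay 4 H2A.Z regions with no listed gene and no CpG island. The farthest, 90.2 kb away, had 10.4 in TAC and 6.79 in sham hearts (log2 ratio 0.55) and was called in TAC only. The other 3, called in both libraries, had 14.1 in TAC and 12.1 in sham hearts (0.20), 13.6 in TAC and 12.3 in sham hearts (0.14), and 13.51 in TAC and 12.5 in sham hearts (0.11). The last of them lay 49.3 kb from the cluster. Beyond Hoxb1, 38.5 kb away, 1 such region had 14.5 in TAC and 11.2 in sham hearts (0.34). The single region within 100 kb of HoxC, listed for D930007P13Rik, had 14.7 in TAC and 18.8 in sham hearts (-0.33).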
